A study of Mus musculus with 6 samples.

Results

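The Hippo pathway was examined in mouse embryonic stem cells exposed to SC1 through 10 genes: the coactivators Yap1 and Wwtr1, the DNA-binding partners Tead1, Tead2 and Tead4, the kinases Lats1 and Lats2, and the targets Ccn1, Ccn2 and Amotl2. Members were taken by name, and their probes were those whose transcript accession belongs to one of these genes. They comprised 14 of the 55681 distinct probes on the array and 10 of its 37074 genes or genomic intervals. All 14 probes were well above background, as flagged by the scanner software, on each of the 6 arrays, so none was lost to the filter on dim probes.

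The study compared J1 cells given 1 µM SC1 for 6 h with J1 cells given DMSO, the solvent, with 3 samples in each group and 1 single-colour array per sample. SC1 (pluripotin) is a synthetic compound described as an inhibitor of both ERK1, a mitogen-activated kinase, and RasGAP, which switches RAS off. J1 is a single embryonic stem cell line of the mouse strain 129S4/SvJae. All 6 samples came from gelatin-adapted cultures in Knockout DMEM with serum replacement and 1000 U/ml LIF, the cytokine that sustains self-renewal of these cells. Whether the replicates are separate cultures is not in the labels, and p-values cover only the scatter among these samples, possibly a technical one.

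In the Hippo pathway, the kinases MST, encoded by Stk3 and Stk4, activate the LATS kinases, which phosphorylate YAP and TAZ (the product of Wwtr1) and so keep them out of the nucleus. Unphosphorylated YAP and TAZ enter the nucleus, bind TEAD factors and raise transcription of targets that include Ccn1, Ccn2 and, as negative feedback, Lats2 and Amotl2. In the mouse blastocyst the pathway separates outer cells, where YAP and TEAD4 act to specify trophectoderm, from the inner cells that give rise to embryonic stem cells. Arrays measure messenger RNA and say nothing of where the proteins were or whether they were phosphorylated.

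Markers of embryonic stem cells were detected in all samples, but detection alone does not set this cell type apart. Above background on all arrays were also all 8 markers of primitive endoderm, 8 of 12 of fibroblasts and 7 of 10 of trophoblast. All 10 genes of a stem cell list, Pou5f1 and Sox2 among them, were above background on all arrays. With SC1, 1 was higher, 6 were lower and 3 did not pass, beside 20.2% of all genes lower. The largest decreases in this list were in Utf1 (log2 fold change -2.36), Dppa4 (-1.52) and Tdgf1 (-1.39). Of 10 genes of ERK output used as a check of the treatment, 9 could be tested and all 9 were lower with SC1, beside 20.2% of all genes. Spry4, 1 of the 9, was above background on the DMSO arrays alone and was tested only through the group where it is high. It fell at least 24.5-fold, with each SC1 array put at its dimmest detected probe or at the Spry4 signal, whichever was higher. The limma adjusted p of the others ran from 2.45e-06 to 0.00171, with Dusp6 at a log2 fold change of -4.99. Signal at the 75th percentile of the probes was 443.3 to 493.3 on the SC1 arrays and 532.2 to 539 on the DMSO arrays, and each array was scaled to this percentile. The 6 arrays lay on 1 slide. Of the SC1 arrays, replicate 1 shared a side of the slide with all 3 DMSO arrays, and replicates 2 and 3 lay on the other side. Across all 25421 genes tested, 38.4% changed (18.1% higher and 20.2% lower), so a single changed gene was common in these data.

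Windows of 300 bases around annotated starts, from 250 bases before to 50 after, were available in RefSeq (GRCm38.p6) for 7 of the 10 members and were searched for ggaatg and its reverse complement cattcc, the core of the element that TEAD factors bind. The letters were present in a window of 5 of the 7 genes: Yap1, Wwtr1, Lats2, Ccn1 and Amotl2. Among all 32851 such windows 14.7% held them, and among all 27025 genes with a window 16.6% did. Tead1, Tead4 and Ccn2 had no window. The windows of the 5 genes are shown, 5′ to 3′ on the gene's strand, with the TEAD letters in capitals. In these members a TEAD element can be read beside the messenger RNA, which for Yap1 did not pass the test.
Yap1: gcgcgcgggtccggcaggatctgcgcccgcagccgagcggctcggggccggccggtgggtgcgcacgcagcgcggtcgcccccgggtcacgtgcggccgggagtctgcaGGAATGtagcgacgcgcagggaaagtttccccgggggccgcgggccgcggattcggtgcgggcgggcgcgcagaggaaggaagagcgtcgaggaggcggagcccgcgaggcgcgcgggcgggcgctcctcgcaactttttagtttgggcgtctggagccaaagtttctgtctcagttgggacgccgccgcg
Wwtr1: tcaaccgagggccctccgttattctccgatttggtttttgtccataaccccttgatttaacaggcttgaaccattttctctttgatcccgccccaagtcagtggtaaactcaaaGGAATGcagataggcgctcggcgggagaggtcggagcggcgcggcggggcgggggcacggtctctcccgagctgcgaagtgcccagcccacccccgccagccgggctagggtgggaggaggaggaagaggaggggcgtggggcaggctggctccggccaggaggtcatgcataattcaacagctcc
Lats2: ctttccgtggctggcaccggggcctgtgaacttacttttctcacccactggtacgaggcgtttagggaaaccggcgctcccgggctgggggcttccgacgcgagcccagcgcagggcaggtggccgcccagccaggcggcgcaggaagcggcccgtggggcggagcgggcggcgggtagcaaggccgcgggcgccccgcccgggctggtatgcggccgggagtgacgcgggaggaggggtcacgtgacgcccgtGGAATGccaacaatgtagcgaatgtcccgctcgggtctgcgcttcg
Ccn1: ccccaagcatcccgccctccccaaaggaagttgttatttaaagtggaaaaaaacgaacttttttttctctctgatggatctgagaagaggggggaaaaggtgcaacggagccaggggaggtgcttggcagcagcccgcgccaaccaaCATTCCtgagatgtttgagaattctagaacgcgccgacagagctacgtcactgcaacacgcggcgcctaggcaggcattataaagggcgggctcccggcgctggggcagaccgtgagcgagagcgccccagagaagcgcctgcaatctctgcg
Amotl2: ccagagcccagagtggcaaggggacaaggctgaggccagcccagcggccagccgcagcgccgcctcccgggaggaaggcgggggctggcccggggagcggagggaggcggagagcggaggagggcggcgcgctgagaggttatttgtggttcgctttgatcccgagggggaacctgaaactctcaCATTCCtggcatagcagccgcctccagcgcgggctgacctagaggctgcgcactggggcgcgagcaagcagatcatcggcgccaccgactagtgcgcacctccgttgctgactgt
The windows lie at chr9:8004547-8004846 (minus strand, Yap1), chr3:57575861-57576160 (minus strand, Wwtr1), chr14:57746074-57746373 (minus strand, Lats2), chr3:145649936-145650235 (minus strand, Ccn1) and chr9:102717554-102717853 (plus strand, Amotl2). The element began 141 bases upstream of the start in Yap1, 136 in Wwtr1, 103 in Ccn1 and 65 in Amotl2, and 4 bases downstream of it in Lats2. A further, overlapping window of Wwtr1 held the same element, and a second start of Lats2 had none in its window. Neither did the windows of Tead2 and Lats1. The AP-1 motif tgantca (its own reverse complement), which often lies near TEAD elements, was in none of the windows of the 7 genes and in 7.8% of all windows. A match in these letters is a description of the sequence and not evidence of binding.

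After 6 h of SC1, the kinase gene Lats2 and the matrix protein gene Ccn1 had fallen most among the members, by more than 2-fold, and Ccn2 and Tead4 had fallen less. Of all genes tested, 1.91% passed and were lower by 2-fold or more. Wwtr1 had risen. Signals of Yap1 and Lats1 did not pass the test, and Tead1, Tead2 and Amotl2 differed little between the groups. By limma with Benjamini-Hochberg adjustment over all 25421 genes at a threshold of 0.05, 2 members were higher (Wwtr1 and Amotl2), 5 were lower (Lats2, Ccn1, Tead4, Ccn2 and Tead1) and 3 did not pass (Yap1, Lats1 and Tead2). This is 7 of 10 against 38.4% of all genes. For 8 of the 10 members the signals of the 2 groups did not overlap, against 52.1% of all genes. Of the 14 probes, each tested on its own, 9 passed (2 higher and 7 lower), against 36.3% of all probes. The median log2 fold change of the members was -0.15, and that of all genes was -0.0052.

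**Figure D1:**
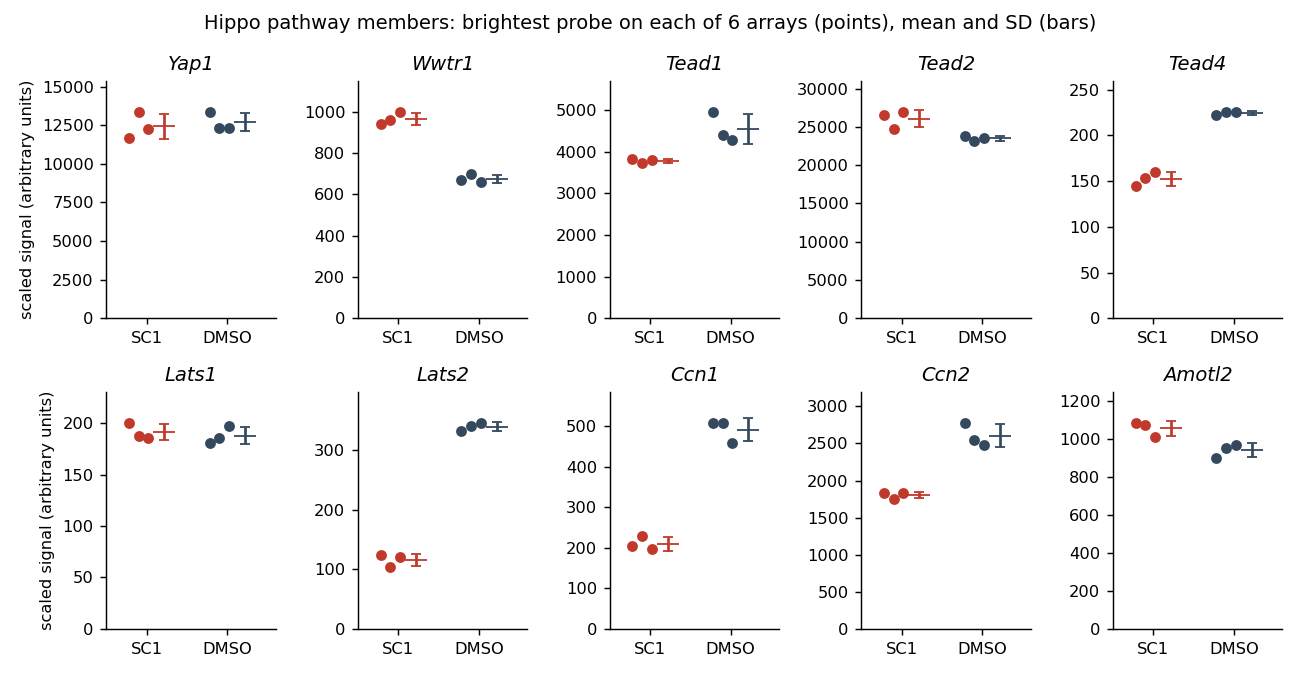
Scaled signal (arbitrary units, each axis from 0) of the brightest probe of each of the 10 members on the 3 SC1 arrays (red) and the 3 DMSO arrays (dark blue); points are arrays, and bars give the mean and SD. The groups overlap for Yap1 and Lats1 and are apart for the other 8, with the widest gaps for Lats2 and Ccn1.

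The coactivators differed. Yap1, which encodes the coactivator YAP, had a scaled signal (the processed signal after scaling each array to the common 75th percentile) of 11701, 13327 and 12269 on the SC1 arrays, against 13361, 12354 and 12354 on the DMSO arrays. The groups overlapped. Its log2 fold change was -0.031 (SE 0.065, n = 3 per group, 95% interval -0.19 to 0.13, limma adjusted p = 0.749), and its sign turned with quantile normalization, where it was 0.063. Wwtr1, which encodes the YAP paralog TAZ, had 942, 958 and 999 on the SC1 arrays, against 669, 698 and 658 on the DMSO arrays. Every SC1 array was above every DMSO array, and the gene rose by 0.52 on the log2 scale (SE 0.0459, limma adjusted p = 0.000483), a 1.43-fold increase. The call held under all 21 alternatives, with log2 fold changes from 0.41 to 0.54. Both genes had a TEAD element in the windows printed above. The change of Wwtr1 exceeded that of Yap1 by 0.55 (SE 0.0764), and the per-array difference between them did not overlap between the groups. Among single genes 52.1% had no overlap, and the share among gene pairs was not examined.

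Among the kinases, the pair also parted. Lats2 encodes a LATS kinase that phosphorylates YAP and TAZ and is itself a YAP target. On its brighter probe it had a scaled signal of 124, 105 and 121 on the SC1 arrays, against 333, 341 and 347 on the DMSO arrays. The highest SC1 array was thus well below the lowest DMSO array. The log2 fold change was -1.55 (SE 0.0727, 95% interval -1.73 to -1.37, limma adjusted p = 5.42e-05), a 2.93-fold decrease, and 98.6% of all genes tested had a smaller absolute log2 fold change. A second probe of Lats2, assigned to another transcript of the gene, was dimmer, with 51.5, 59.0 and 52.4 on the SC1 arrays, against 95.4, 90.1 and 83.0 on the DMSO arrays. It fell as well, by 0.72 on the log2 scale (SE 0.0793, limma adjusted p over all probes = 0.00127), less than the first, and the 95% intervals of the 2 probes did not overlap. Lats1, the other LATS kinase gene, had 200.5, 188 and 186 on the SC1 arrays, against 181, 185 and 197 on the DMSO arrays. These groups overlapped, and the log2 fold change was 0.026 (SE 0.0546, 95% interval -0.11 to 0.16, limma adjusted p = 0.744).

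On its brighter probe, the fall of Lats2 exceeded any change of Lats1 by 1.58 on the log2 scale (difference -1.58, SE 0.0698). Between single SC1 and DMSO arrays this difference ran from -1.73 to -1.43. Its size depended on the probe, and with the mean of the gene's probes it was -1.16. With 3 arrays per group the exact two-sided permutation test cannot give a p under 0.1. It gave 0.1 for each of the 6 pairs of paralogs compared (adjusted p = 0.1 over the 6), which were Lats2 with Lats1, Wwtr1 with Yap1, Ccn1 with Ccn2 and the TEAD genes with each other.

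TEAD factors bring YAP and TAZ to DNA. Tead4, required for trophectoderm in the mouse embryo, had a scaled signal of 145, 153 and 160.1 on the SC1 arrays, against 222, 225 and 226 on the DMSO arrays. All SC1 arrays were lower, and the gene had a log2 fold change of -0.56 (SE 0.0501, limma adjusted p = 0.000508), a 1.47-fold decrease that kept its call under all 21 alternatives.

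Tead1 had 3829, 3737 and 3794 on the SC1 arrays, against 4960.1, 4410.1 and 4283 on the DMSO arrays, for its brightest probe. The groups did not overlap, and it fell by 0.26 on the log2 scale (SE 0.0643, limma adjusted p = 0.0219). Its 2 dimmer probes had log2 fold changes of -0.17 (adjusted p over all probes = 0.212) and -0.38 (adjusted p over all probes = 0.0219). The call on Tead1 did not hold without SC1 replicate 1, 2 or 3 (adjusted p = 0.0563, 0.0637 and 0.0608), with the slide side as a block (adjusted p = 0.149) or under 5 other alternatives.

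Tead2 had 26568, 24788 and 26963 on the SC1 arrays, against 23777, 23194 and 23539 on the DMSO arrays, for its brighter probe. Every SC1 array was higher, but the log2 fold change of 0.15 (SE 0.0476, limma adjusted p = 0.0506) just missed the threshold. On a second probe the gene had 9909, 9428 and 9712 on the SC1 arrays, against 8270.5, 8076 and 8168 on the DMSO arrays, and there it rose by 0.24 (SE 0.0422, limma adjusted p over all probes = 0.00672). It passed under 7 of 21 alternatives, quantile normalization among them (0.25, adjusted p = 0.00597). Relative to Tead4, Tead2 changed by 0.71 more (SE 0.0567), and relative to Tead2, Tead1 changed by -0.41 (SE 0.0651). For each of the 3 TEAD pairs the per-array differences of the groups did not overlap. How common this is among gene pairs was not examined, and among single genes 52.1% had no overlap.

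**Figure D2:**
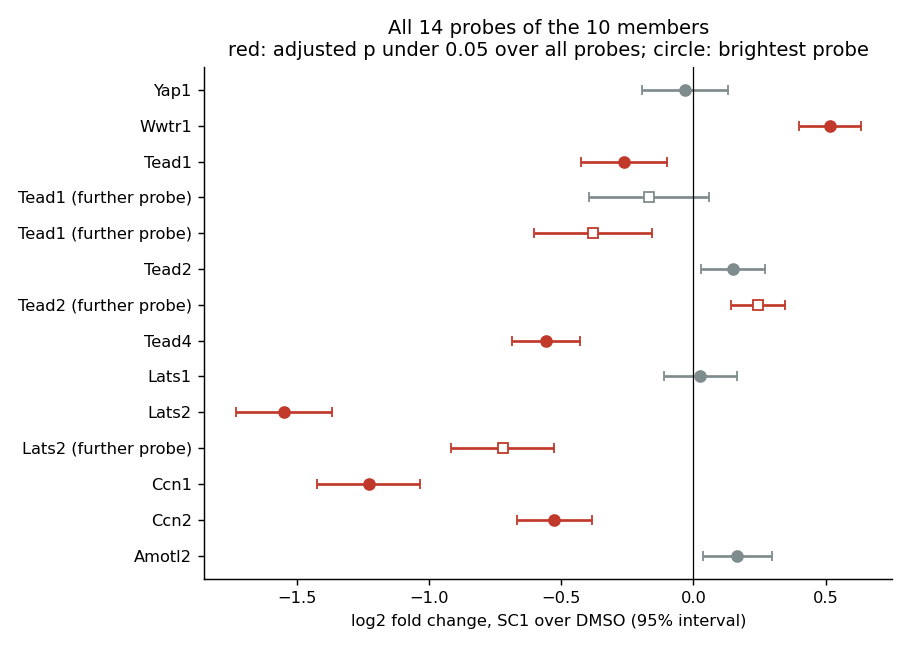
Log2 fold change of SC1 over DMSO with its 95% interval from limma for all 14 probes of the 10 members; circles are the brightest probe of a gene, open squares its other probes, and red marks an adjusted p under 0.05 over all probes. The 2 probes of Lats2 and those of Tead1 and Tead2 lie on the same side of 0 as each other, and Amotl2 is grey because its adjusted p over all probes was 0.0553.

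The targets did not move as one. Ccn1, which encodes the secreted matrix protein CYR61 and is among the most direct readouts of YAP and TEAD, had a scaled signal of 204, 230.2 and 196 on the SC1 arrays, against 509, 508 and 459 on the DMSO arrays. The highest SC1 array lay far below the lowest DMSO array, and the log2 fold change was -1.23 (SE 0.0778, limma adjusted p = 0.000147), a 2.34-fold decrease. In bulk RNA such as this, fewer cells expressing a gene and less RNA per cell cannot be told apart. Ccn2, which encodes the related connective tissue growth factor, had 1829, 1757 and 1832 on the SC1 arrays, against 2780.2, 2551 and 2481 on the DMSO arrays. It was lower on every SC1 array, with a log2 fold change of -0.53 (SE 0.0562, limma adjusted p = 0.000981), a 1.44-fold decrease. The change of Ccn1 was larger than that of Ccn2 (difference -0.70, SE 0.0964).

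Amotl2 encodes an angiomotin, a scaffold that holds YAP outside the nucleus, and is a YAP target too. It had 1084, 1071 and 1008 on the SC1 arrays, against 899.8, 953 and 967 on the DMSO arrays. The groups were just apart, in the direction opposite to Ccn1 and Ccn2, with a log2 fold change of 0.17 (SE 0.0513, limma adjusted p = 0.0477). This call was lost without SC1 replicate 1 or 2 or any of DMSO replicates 1, 2 and 3 (adjusted p from 0.0758 to 0.132), and under 8 of the other alternatives. Thus Lats2, Ccn1 and Amotl2, each with a TEAD element near a start and each reported as a YAP target, included 2 genes that fell and 1 that was slightly higher with SC1.

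Other cell types were looked for through their markers, since Ccn1 and Ccn2 are abundant in fibroblasts and Tead4 in trophoblast. Among 12 markers of embryonic fibroblasts, a usual feeder cell, 8 were above background on all arrays, and Lum, Postn and Twist2 were on none. Among all genes 18.1% were higher and 20.2% lower with SC1. Of the 9 fibroblast markers tested, 3 were higher (Col1a1, Col3a1 and Dcn), 2 were lower (Thy1 and Loxl1) and 4 did not pass. Their summed scaled signal was 1351 to 1364 on the SC1 arrays and 1765 to 1811 on the DMSO arrays, a direction set by Thy1 (means of 337 with SC1 and 717 with DMSO) and Loxl1 (348 with SC1 and 504 with DMSO). Of 10 trophoblast markers 8 were tested, while Elf5 and Hand1 were above background on no array. Of the 8, 5 were higher (Gata3, Tfap2c, Krt8, Krt18 and Ascl2) and Krt7 did not pass. The other 2, Eomes and Cdx2, were lower. Cdx2 was detected on the DMSO arrays alone and was tested only through the group where it is high. It fell at least 1.4-fold, with each SC1 array put at its dimmest detected probe or at the Cdx2 signal, whichever was higher. The trophoblast list had a median log2 fold change of 0.62. The summed signal was 18755 to 19767 on the SC1 arrays and 8763 to 9026 on the DMSO arrays, and most of it came from Tfap2c alone (means of 14513 with SC1 and 5599.5 with DMSO). These sums add probes of unlike brightness and do not measure the share of a cell type. Their part in the changes of Ccn1, Ccn2 and Tead4 was not tested.

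With the slide side as a block, 21.8% of all genes were called, and 5 members were: Lats2, Ccn1, Ccn2, Tead4 and Wwtr1. The other side holds SC1 arrays alone, so this fit takes its log2 fold changes from SC1 replicate 1 against the 3 DMSO arrays. They were -1.46 for Lats2, -1.27 for Ccn1, -0.51 for Ccn2, -0.63 for Tead4 and 0.48 for Wwtr1. These are close to the values over all arrays, but they rest on 1 SC1 array that is also part of those values. Under all 21 alternatives tried, the same 5 genes kept their direction and passed the threshold.

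**Figure D3:**
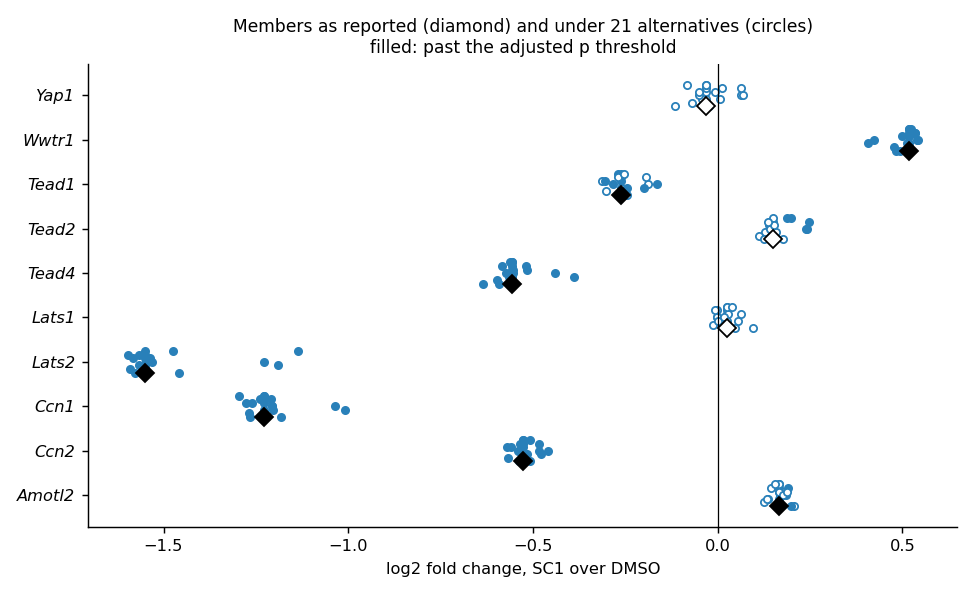
Log2 fold change of SC1 over DMSO for each member as reported (diamonds) and under the 21 alternatives (circles), filled where the adjusted p passed its threshold. Wwtr1, Tead4, Lats2, Ccn1 and Ccn2 are filled throughout, whereas the calls on Tead1, Tead2 and Amotl2 vary and Yap1 and Lats1 are never called.

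Further genes of the pathway changed in both directions and by small amounts. Of 46 listed, 45 were on the array and 39 were tested; 9 were higher, 9 were lower and 21 did not pass, with a median log2 fold change of 0.011, against -0.0052 for all genes. This share of calls, 18 of 39, stands beside the 38.4% of all genes. Log2 fold changes ran from -0.59 to 0.52, a narrower span than that of the 10 members (-1.55 to 0.52).

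Map4k5 and Map4k4, kinases of the MAP4K family that act on LATS alongside MST, rose by 0.52 (SE 0.0356, limma adjusted p = 0.000194) and 0.28 (adjusted p = 0.00368). A second probe of Map4k4 had 0.085 and did not pass (adjusted p over all probes = 0.189). Btrc, which encodes the ubiquitin ligase subunit that targets phosphorylated YAP for degradation, rose by 0.52 (SE 0.0424, limma adjusted p = 0.000349) on its brighter probe and had 0.047 on the other (adjusted p over all probes = 0.708). Rassf1, a scaffold that binds MST kinases, rose by 0.40 (adjusted p = 0.00124). The calls on Map4k4 and Rassf1 were lost with the position within the slide side as a block (adjusted p = 0.0874 and 0.052) and with spike-in scaling (adjusted p = 0.318 and 0.095). Only SC1 replicates 2 and 3 and DMSO replicates 1 and 2 share a position across the groups. The fold changes of the position block rest on these arrays, and there the groups lie on opposite sides of the slide.

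On the other side, Fat1, a giant protocadherin of the family that signals to Hippo, fell by 0.59 on the log2 scale (SE 0.0454, limma adjusted p = 0.00028). Stk38, a kinase of the same family as LATS, fell by 0.33 (adjusted p = 0.00259), Amotl1, an angiomotin, fell by 0.36 (adjusted p = 0.00543), and Wtip, a LIM protein that binds LATS, fell by 0.26 (adjusted p = 0.00842). With spike-in scaling the calls on Stk38, Amotl1 and Wtip were lost (adjusted p = 0.0838, 0.0707 and 0.191). They were also lost with the position within the slide side as a block (adjusted p = 0.061, 0.0732 and 0.103). Amotl1 and Wtip also missed the threshold with the slide side as a block (adjusted p = 0.0675 and 0.0865), and Amotl1 had -0.14 with normexp and the 75th percentile (adjusted p = 0.0526). The MST kinase genes differed little: Stk3 had a log2 fold change of 0.16 (adjusted p = 0.0488) and Stk4 one of -0.070 (adjusted p = 0.299). The call on Stk3 was lost when any 1 array was left out (adjusted p from 0.062 to 0.117). Tead3, the TEAD gene that is no member, had -0.10 (adjusted p = 0.569), and Amot, the third angiomotin gene, had 0.034 (adjusted p = 0.882).

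Among 26 further genes reported as YAP or TEAD targets, mostly in human cell lines, 21 were tested. Of these 5 were higher, 5 were lower and 11 did not pass, a share of 10 of 21 beside the 38.4% of all genes, and the median log2 fold change was 0.035. Without SC1 replicate 3, 6 of the 21 passed. The list shares Amotl1, Ajuba and Ptpn14 with the pathway genes.

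The largest changes of the target list were decreases. Nt5e, which encodes the ectonucleotidase CD73, had a log2 fold change of -3.12 (SE 0.0547, limma adjusted p = 4e-06), an 8.67-fold decrease, with a mean scaled signal of 47.3 on the SC1 arrays and 409 on the DMSO arrays. Fjx1, a Golgi kinase-like protein gene, fell 3.22-fold (log2 fold change -1.69, SE 0.0468), and Gadd45a, a stress-response gene, fell 2.49-fold (log2 fold change -1.32, SE 0.0421), with adjusted p of 1.22e-05 and 1.62e-05. Ajuba, a LIM protein that inhibits LATS, fell by 0.23 (adjusted p = 0.0183), a call lost under 11 of 21 alternatives, spike-in scaling among them (adjusted p = 0.239).

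Increases in the list were smaller. Dock5, a guanine nucleotide exchange factor gene, rose by 0.43 (SE 0.0544, limma adjusted p = 0.00191). This call was lost with the position within the slide side as a block (adjusted p = 0.0569) and with spike-in scaling (adjusted p = 0.0713). Edn1, the endothelin gene, was above background on all 3 SC1 arrays and on no DMSO array. On the scaled signal of the main fit it rose at least 1.60-fold. This bound, for that scale alone, puts each DMSO array at its dimmest detected probe or at the Edn1 signal, whichever was higher. The limma adjusted p of its fitted change, 0.81 on the log2 scale, was 0.0154. That call was lost without SC1 replicate 3 (adjusted p = 0.0513) and with the position within the slide side as a block (adjusted p = 0.167). The fitted change was 0.14 with normexp and quantile normalization. Ankrd1, a canonical YAP target in human cells, was above background on no array, as were Areg, Foxf2 and Ccdc80.

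**Figure D4:**
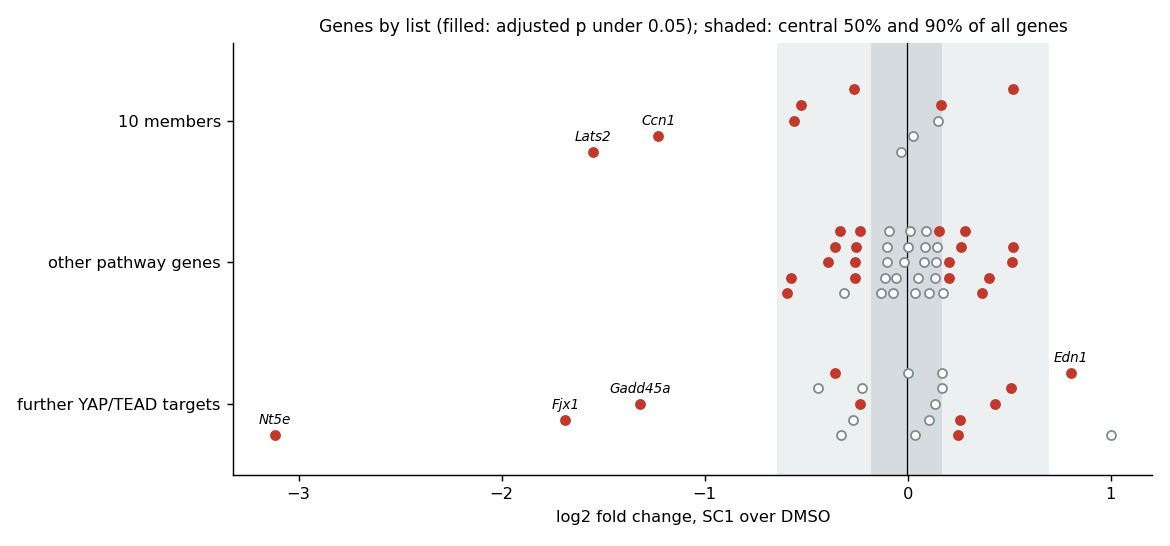
Log2 fold change of SC1 over DMSO for the tested genes among the 10 members, the other pathway genes and the further YAP or TEAD targets; filled points passed an adjusted p of 0.05, and shading spans the central 50% (-0.18 to 0.17) and 90% (-0.64 to 0.69) of all genes. Pathway genes lie within the central 90%, while Lats2, Ccn1, Nt5e, Fjx1 and Gadd45a lie far below it; Edn1 is drawn at its fitted value, and Amotl1, Ajuba and Ptpn14 appear in both lists.

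Genes controlled by MRTF and SRF, regulators of actin genes that share Ccn1 and Ccn2 as targets with YAP, were more often higher than lower. Of 12 tested, 6 were higher, 2 lower and 4 did not pass, beside 18.1% higher and 20.2% lower among all genes. The median log2 fold change was 0.37, against -0.0052 for all genes. Myl9 and Tagln, contractile genes, were the most increased, and Srf itself had a log2 fold change of -0.20 (limma adjusted p = 0.0284).

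Over the 6 arrays the genes with the profile most like that of Lats2 were Mllt3, Hps3 and Riox2 (Pearson r of 0.9999, 0.9997 and 0.9996), and those most like Ccn1 were Igfbp2, Usp31 and Tex13b (0.9995, 0.9993 and 0.9988). The correlation takes no account of size. Log2 fold changes were -0.18 for Mllt3, -0.96 for Hps3 and -0.47 for Riox2, against -1.55 for Lats2. They were -0.65 for Igfbp2, -0.31 for Usp31 and -0.62 for Tex13b, against -1.23 for Ccn1. These correlations are descriptions over 6 arrays in 2 groups, so any gene that falls evenly ranks high. Of 25420 other genes, 2901 had an r above 0.95 with Lats2 and 2381 with Ccn1.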

How the data were processed

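RNA carried Cy3 on arrays of 1 colour, per the labels' protocols, and spots were quantified with Agilent Feature Extraction 10.7, per the submitters' processing notes. The deposited scanner files give an intensity per spot, background-subtracted and spatially detrended per the file headers, raw median intensities of spot and background, and other columns that are flags of 0 or 1. A second deposited file holds log2 intensities from the authors; how it was normalized is not given in the sources used here, and every array has the same median, 5.17. No spot was saturated. Outlier spots (137 to 201 per array) were left out, log2 signals of a probe's spots were averaged, and each array's 75th percentile was subtracted. Of 55681 probes, 35321 were detected on every array of SC1, of DMSO or of both, and 33 of them with an outlier on some array were dropped. Probes were named by accession in a RefSeq gene table (27235 probes), and a gene took its brightest probe. SC1 was compared with DMSO in limma 3.58.1 (R 4.3.3; lmFit, eBayes, two-sided, Benjamini-Hochberg over all genes, threshold 0.05). The number of arrays limits the precision. Probes of one gene were compared in a fit over all 35288 probes. The code was tested on simulated data. Members and lists were chosen with earlier results of these data known; named are all members, the 5 relatives Tead3, Amot, Amotl1, Stk3 and Stk4, up to 8 genes per list with the smallest p (1 is not reported here), and the 3 closest profiles of Lats2 and Ccn1. Alternatives were quantile, median and spike-in scaling, normexp (offset 50) with quantile or percentile scaling, the deposited log2 matrix, 2 filters, probe means, every probe, a robust trend, the replicate number, the side of the slide or the position within a side as blocks, a threshold of 0.01 and leaving out each array. Normexp used median signals. Python 3.11.15 with matplotlib 3.10.9 drew the figures.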

Additional observations from a re-analysis of the deposited data

How the results depend on the processing

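The calls and directions of Wwtr1, Tead4, Lats2, Ccn1, Ccn2, Map4k5, Fat1, Btrc, Nt5e, Fjx1 and Gadd45a held under all 21 alternatives, and 5 to 8 of the 10 members passed under each. All genes gave 9752 calls, against 5791 at a threshold of 0.01, 5067 with spike-in scaling, 5542 with the slide side as a block, 3324 with the position within it as a block and 7747 to 8398 when 1 array was left out. Of these calls 47.3% were increases, and 57.9% with normexp and the 75th percentile. The pathway list gave 18 calls, against 8 at a threshold of 0.01, 5 with spike-in scaling, 7 with the slide side and 4 with the position as a block, and 12 to 16 with 1 array left out. The target list gave 10, against 6 at a threshold of 0.01, 4 with the position as a block and 6 to 10 with 1 array left out. Signs turned only for genes that never passed. Yap1 had 0.063 with quantile normalization, 0.068 with normexp and quantile, 0.063 in the deposited matrix and -0.082 to 0.012 with 1 array left out. Lats1 had -0.0005 with quantile normalization, -0.0004 with normexp and quantile, -0.0011 in the deposited matrix, -0.014 with spike-in scaling and -0.0078 to 0.062 with 1 array left out. Amot had -0.0001 with normexp and the 75th percentile, -0.052 with normexp and quantile, -0.21 with the slide side as a block, -0.0057 with spike-in scaling and -0.14 to 0.16 with 1 array left out, and Tead3 had 0.057 with normexp and the 75th percentile and -0.22 to 0.015 with 1 array left out. The cause was not tested. The replicate numbers gave no sign of pairing (correlation of deviations of same-numbered arrays -0.036 to -0.013); with the replicate block 7914 genes, 6 members, 10 pathway genes and 10 targets passed. Changes under about the size of Tead1, Tead2 and Amotl2 are at the limit of 3 arrays per group.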

Other observations

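Primitive endoderm, the other lineage that arises from the inner cells of the blastocyst, was followed through 8 marker genes. All 8 were above background on all 6 arrays. With SC1, 18.1% of all genes were higher and 20.2% lower. Of the 8 markers, 4 were higher (Gata4, Pdgfra, Lama1 and Sparc), Col4a1 was lower, and Gata6, Sox17 and Dab2 did not pass (limma, threshold 0.05 over all genes). Their summed scaled signal was 96586 to 100630 on the SC1 arrays and 73816 to 77632 on the DMSO arrays, nearly all of it from Sparc (means of 87893 with SC1 and 68519 with DMSO) and Lama1 (10135 with SC1 and 6292 with DMSO). Their part in the changes of the Hippo genes was not tested.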
